A study of Rattus norvegicus with 12 samples.

Results

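Genes of the Wnt pathway were examined in rat L6 myotubes, with 10 genes at the centre: the secreted inhibitors *Sfrp1*, *Sfrp2*, *Sfrp4*, *Dkk2* and *Dkk3*, the transcriptional core *Ctnnb1*, *Lef1* and *Tcf7l2*, and the feedback targets *Axin2* and *Nkd1*. The 10 genes were selected on their log2 differences between compound and control in earlier results of these same arrays, where *Sfrp4* with pinosylvin stood out, so their values are a description, and so are the counts of calls among them below. Of the 10 genes, 9 had a probe named through its RefSeq accession, against 16581 named genes with a probe on the whole array, and 7 passed the filter on dim probes, against 10741 named genes. No probe was named *Tcf7l2*. The single probes of *Sfrp2* and *Dkk2* were not well above background on any of the 12 arrays.

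L6 is a rat skeletal muscle line whose myoblasts fuse into multinucleated myotubes in low serum. All cultures came from 1 batch of this line and had differentiated for 6 days by the sample labels, while the methods of the study name a slightly longer time. They then received for 24 h the strigolactone analog GR24, the stilbene pinosylvin or the stilbene resveratrol, each at 60 µM in DMSO, or DMSO alone as the control. Each of the 4 groups had 3 arrays, 1 from each of 3 independent experiments, and the spread between arrays is therefore that between experiments on 1 batch of cells.

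Wnt ligands are lipid-modified secreted proteins that bind Frizzled receptors and their Lrp co-receptors, which stops the destruction complex of Axin, Apc and Gsk3 from degrading beta-catenin. Beta-catenin then joins Lef/Tcf factors at target genes, among them *Axin2* and *Nkd1*, whose products dampen the signal in turn. Sfrp proteins bind the ligands outside the cell, Dkk proteins act mostly at the co-receptors, and in muscle the pathway takes part in myoblast differentiation and regeneration.

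Each value below is the log2 processed signal of a probe minus the 75th percentile of its array, so a value of a gene is a level on its own probe and is not set against that of another gene. Between 58.0% and 64.3% of the spots of an array were marked by the scanner software as well above background. Tests were run on the probes so marked on every array of 1 or more groups. Replicates 1 and 2 of every group shared 1 slide and replicate 3 lay on the other. Over the tested probes the median difference between slides was small, -0.055, but 9.85% of probes differed by over 0.5, and *Wnt1* stood 0.93 higher on slide 2. Differences within each slide are therefore given for *Wnt1* and for those of the 10 genes whose groups did not overlap. Left out are comparisons in which neither group was well above background on any array.

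The myotube label was checked against markers. Of 12 myotube markers with a probe, 11 were well above background on all 12 arrays, and *Myod1* was so on 8. The summed signal of these markers, in units of the 75th percentile, was 986, 1090 and 963 on the control arrays, 413, 408 and 399 with GR24, 1090, 1140 and 1070 with pinosylvin and 838, 872 and 820 with resveratrol, with *Myh3* the brightest on every array. GR24 arrays were thus clearly the lowest. In the limma fit 11 of the 12 markers fell with GR24, beside 25.5% of all tested probes, 3 rose with pinosylvin, beside 8.28%, and 7 fell with resveratrol, beside 8.99%. The cultures also carried markers of undifferentiated or cycling myoblasts, with *Cdk1* the brightest outside the GR24 group. Their summed signal was 73.8, 70.0 and 72.6 in the control, 20.0, 21.3 and 19.7 with GR24, 33.7, 33.3 and 34.2 with pinosylvin and 45.6, 51.3 and 48.1 with resveratrol. All 3 compounds lay below the control in this sum, which is carried by the bright cycling genes. Of the 7 tested markers of this list 4 fell with GR24, 4 with pinosylvin and 3 with resveratrol, beside 25.5%, 8.27% and 8.99% of all probes. Those 3 were *Cdk1*, *Mki67* and *Ccnb1*, while *Myf5*, *Pax7*, *Pax3* and *Id1* hardly moved with resveratrol (-0.0070, 0.012, -0.0068 and -0.033). All 8 fibroblast-like markers were well above background on every array, with sums of 397 to 422 in the control, 206 to 237 with GR24, 354 to 388 with pinosylvin and 365 to 377 with resveratrol, so all compound arrays lay below the control arrays. Of these 8 markers 1 rose and 7 fell with GR24, 3 rose and 2 fell with pinosylvin and 1 rose and 2 fell with resveratrol, beside 57.1%, 16.6% and 17.0% of all probes called. The blood marker *Ptprc*, the adipocyte markers *Adipoq* and *Pparg* and the smooth muscle marker *Cnn1* were not well above background on any array. *Fabp4* was so on 2 arrays, *Itgam* on 4, *Pecam1* on 5, *Bglap* on 6 and *Tek* on 9. However, *Cdh5* of the endothelial list, *Cd68* of the blood list and *Myh11*, *Alpl*, *Runx2* and *Sp7* of the smooth muscle or osteoblast-like list were well above background on all 12 arrays. Fewer cells of a type and less RNA per cell cannot be told apart in these bulk samples, and the part of these marker shifts in the results below was not tested.

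*Sfrp4*, a secreted Frizzled-related protein, was faint on all arrays. Its log2 signal was -6.64, -6.90 and -6.69 in the control, and none of these arrays was well above background. With pinosylvin it was -4.22, -4.36 and -4.07, well above background on all 3 arrays. With resveratrol it was -4.68, -5.27 and -5.08, well above background on 2 of the 3. With GR24 it was -5.12, -4.80 and -5.28, and none of the 3 was well above background. Every pinosylvin array lay above every other array, every control array lay below, and GR24 and resveratrol overlapped between them.

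For a fold, each control array was set at the dimmest signal of any probe marked on it. The *Sfrp4* signal with pinosylvin was then 2.70-fold higher than the control. This is no lower bound for this probe. On GR24 replicate 2 the probe was not marked at -4.80, above the dimmest marked signal of that array, -5.63. The measured means differed by 2.53, with 2.48 on slide 1 and 2.62 on slide 2, which helped to choose the gene and is no estimate of size against a control not well above background. The probe passed the filter through its pinosylvin arrays alone. With resveratrol the signal was 1.56-fold higher in the same way, resting on 2 of 3 arrays. The difference of 1.73 (1.79 on slide 1 and 1.61 on slide 2) came down to 0.39 under the alternatives, smaller in size than that fold. No fold is given for GR24, because neither group was well above background. Between the stilbenes, resveratrol carries a further hydroxyl group on the ring that is bare in pinosylvin. At the same dose and time the measured *Sfrp4* means differed by 0.80, higher with pinosylvin (0.69 on slide 1 and 1.02 on slide 2). This was 0.24 at the least under the alternatives. No interval is given, since the gene was chosen on its pinosylvin values and resveratrol was well above background on 2 of 3 arrays only. The size of the pinosylvin difference depended on the background correction. It was 0.76 and 0.72 with normexp before the percentile and before quantile normalization, and 1.58 in the deposited table. The normexp values are smaller in size than the 2.70-fold difference.

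*Sfrp1*, another Frizzled-related protein, had -4.65, -4.28 and -3.80 in the control and -4.66, -4.87 and -3.68 with GR24. It had -4.47, -4.58 and -3.93 with pinosylvin and -4.32, -3.83 and -4.42 with resveratrol. All groups overlapped, and the differences from the control were -0.16, -0.083 and 0.056 with GR24, pinosylvin and resveratrol, each with an SE of 0.328. A second *Sfrp1* probe was well above background on 1 array only.

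*Dkk3*, a divergent member of the Dickkopf family, had -3.77, -4.59 and -4.15 in the control and -5.27, -6.08 and -6.22 with GR24. It had -3.71, -3.96 and -4.01 with pinosylvin and -3.95, -4.04 and -4.27 with resveratrol. The GR24 arrays lay below all others and were not well above background, while the other groups overlapped. With the GR24 arrays set no lower than their dimmest marked signals, the signal was 2.47-fold lower with GR24 than in the control. This fold is no lower bound, since GR24 replicate 1, at -5.27, lay above the dimmest signal marked on its array. The measured difference of -1.69 was -1.50 on slide 1 and -2.07 on slide 2. Under the alternatives it came down to -0.37, smaller in size than that fold. The differences were 0.28 with pinosylvin and 0.082 with resveratrol, each with an SE of 0.255. The other 3 probes of *Dkk3* were not well above background on any array.

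*Ctnnb1*, the gene of beta-catenin, had 1.79, 1.63 and 1.67 in the control and 1.13, 1.33 and 1.01 with GR24. It had 1.65, 1.66 and 1.38 with pinosylvin and 1.66, 2.03 and 1.78 with resveratrol. The GR24 arrays lay below all others, and both stilbenes overlapped the control. The difference was -0.54 with GR24 (-0.48 on slide 1 and -0.65 on slide 2), -0.13 with pinosylvin and 0.13 with resveratrol, each with an SE of 0.122.

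*Lef1*, a DNA-binding partner of beta-catenin, had -3.33, -3.27 and -3.56 in the control and -4.12, -4.76 and -4.11 with resveratrol. It had -3.35, -3.72 and -3.72 with GR24 and -3.42, -3.86 and -3.82 with pinosylvin. The resveratrol arrays lay below all others, and the other groups overlapped. The difference from the control was -0.95 with resveratrol, and pinosylvin lay 0.63 above resveratrol, each with an SE of 0.194. Within slides both were uneven, -1.15 and 0.81 on slide 1 and -0.55 and 0.29 on slide 2. The resveratrol difference came down to -0.40 under the alternatives. Whether the difference between the stilbenes passed the threshold depended on the settings. It missed it in the main fit and passed it with the replicate block and with the slide as a block, which is a description only.

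*Axin2*, a scaffold of the destruction complex and a widely used readout of the pathway, had -1.49, -1.44 and -1.81 in the control and -1.06, -1.11 and -1.25 with GR24. It had -1.72, -1.63 and -2.09 with pinosylvin and -1.42, -1.62 and -1.69 with resveratrol. The GR24 arrays lay above all others, and both stilbenes overlapped the control. The difference with GR24 was 0.44 (SE 0.139), the smallest from the control without overlap among the 10 chosen genes. It was 0.30 to 0.56 under the alternatives, with 0.38 on slide 1 and 0.56 on slide 2. The difference was -0.24 with pinosylvin (-0.21 on slide 1 and -0.28 on slide 2) and 0.0031 with resveratrol, with the same SE. That with pinosylvin passed the threshold only with the slide as a block.

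*Nkd1*, a feedback inhibitor that binds Dishevelled, had -2.80, -2.73 and -3.02 in the control and -4.73, -4.46 and -4.06 with GR24. It had -4.45, -4.28 and -4.73 with pinosylvin and -3.71, -3.58 and -3.55 with resveratrol. All compound arrays lay below all control arrays, and GR24 and pinosylvin, each well above background on 2 of 3 arrays, overlapped below resveratrol. The difference was -1.57 with GR24, -1.64 with pinosylvin and -0.76 with resveratrol, each with an SE of 0.167. On slide 1 they were -1.83, -1.60 and -0.88 and on slide 2 -1.04, -1.71 and -0.52. With other background corrections or scales these came down to -0.55, -0.60 and -0.31. Between the stilbenes it was -0.88 (SE 0.167), lower with pinosylvin, with -0.73 on slide 1 and -1.19 on slide 2, and -0.21 at the least under the alternatives. A second probe gave -0.91, -1.33 and -0.71 against the control and -0.62 between the stilbenes, of the same sign throughout, with 1 of 3 pinosylvin arrays well above background. *Axin2* and *Nkd1* thus stood on opposite sides of the control with GR24.

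**Figure D1:**
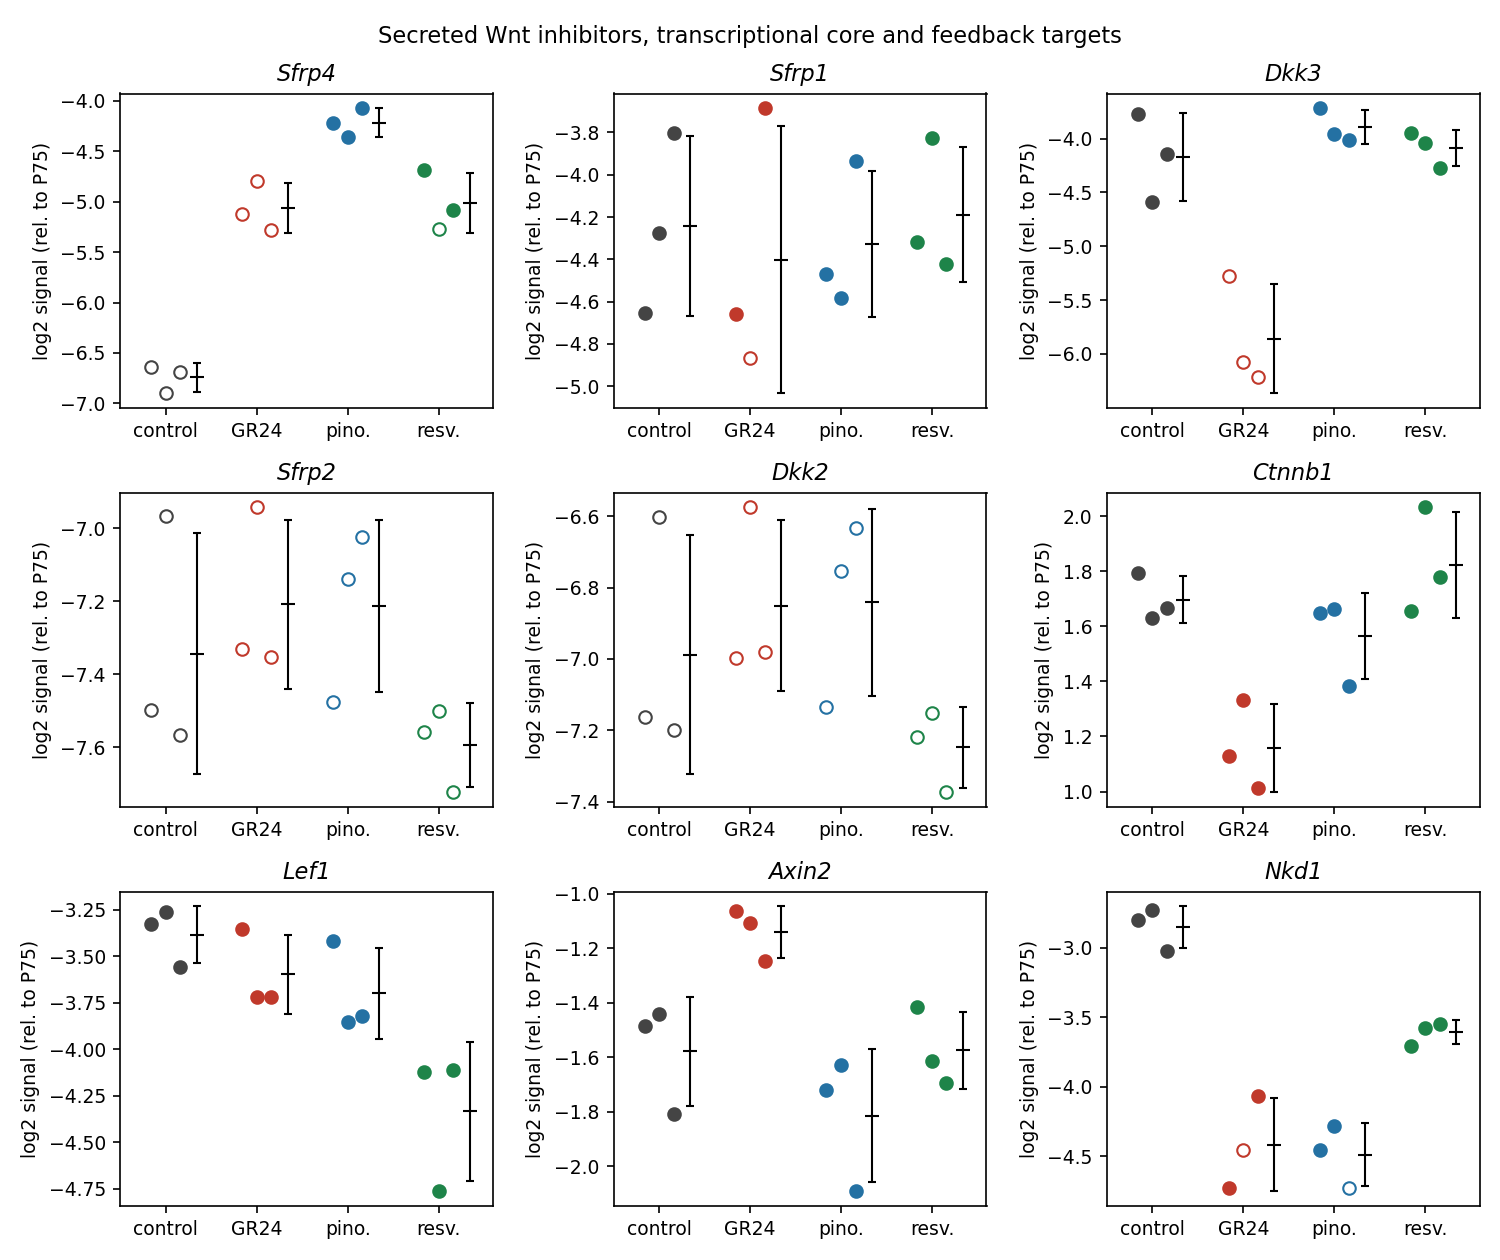
Log2 signal of 9 genes, relative to the 75th percentile (P75) of each array, for the 3 arrays of control, GR24, pinosylvin (pino.) and resveratrol (resv.). Filled points were well above background and open points were not, bars are mean and SD, and each panel has its own scale. *Sfrp4* is highest with pinosylvin, *Dkk3* and *Ctnnb1* are lowest with GR24, *Lef1* is lowest with resveratrol, and *Nkd1* is below the control with every compound.

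Counts over these genes are given beside those over all 24279 tested probes, and nothing is read from them, since the same contrasts chose the genes. With GR24, 2 of the 7 tested genes were higher and 3 lower at an adjusted p under 0.05 in limma, where 57.1% of all probes were called, 31.5% higher and 25.5% lower. *Sfrp4* is in this GR24 count although neither its control nor its GR24 arrays were marked as well above background. With pinosylvin 1 was higher and 1 lower, beside 16.6% of probes (8.28% higher, 8.27% lower). With resveratrol 1 was higher and 2 lower, beside 17.0% (7.99% higher, 8.99% lower). Between pinosylvin and resveratrol 1 was higher and 1 lower, beside 14.5% (7.68% higher, 6.85% lower). The 3 comparisons with the control share the control arrays.

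Which of the 10 genes were counted depended on the settings. *Axin2* was not counted with GR24 under 7 alternatives, among them both normexp settings, the deposited table and 3 arrays left out in turn, while its difference kept its sign under all of them. Between the stilbenes *Sfrp4* was not counted with quantile normalization, normexp with quantile normalization or the deposited table, and *Nkd1* was not counted with normexp and the percentile. *Lef1* was not counted between the stilbenes, but was with the replicate block, with the slide as a block and under 2 other alternatives. *Axin2* was counted with the slide as a block for pinosylvin and between the stilbenes, and not otherwise.

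The promoter table of RefSeq, build GRCr8, held a window of 300 bases, 250 before to 50 after a transcript start, for 6 of the 10 genes: *Axin2*, *Ctnnb1*, *Lef1*, *Nkd1*, *Sfrp2* and *Tcf7l2*. The Lef/Tcf core CTTTGAT, or its reverse complement, was found in 2 of these 6 windows, those of the feedback targets *Axin2* and *Nkd1*, and in 3.63% of all 33469 windows. Both are shown because these genes are the feedback targets described above. Each run is the 250 bases before the start, 5′ to 3′ on the strand of the gene, with the core in capitals, for *Axin2* at chr10:94398535-94398784 on the plus strand, 125 bases before the start, and for *Nkd1* at chr19:34722847-34723096 on the minus strand, 134 bases before it. The *Axin2* window belongs to a start inside the span of the gene in the same annotation, not to its outermost start. A match is a description, not a site or a cause.
Axin2: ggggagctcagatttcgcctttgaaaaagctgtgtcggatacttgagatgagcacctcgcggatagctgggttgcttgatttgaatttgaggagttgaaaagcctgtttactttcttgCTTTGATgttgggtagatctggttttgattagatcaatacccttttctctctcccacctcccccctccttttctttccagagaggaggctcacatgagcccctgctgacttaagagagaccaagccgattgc
Nkd1: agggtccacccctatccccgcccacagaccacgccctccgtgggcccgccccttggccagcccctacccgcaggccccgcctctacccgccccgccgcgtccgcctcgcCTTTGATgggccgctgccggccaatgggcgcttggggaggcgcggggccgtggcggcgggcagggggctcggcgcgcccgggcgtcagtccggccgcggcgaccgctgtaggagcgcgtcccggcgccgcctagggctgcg

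Beyond these genes, 103 other genes of the pathway were listed by role. Of them 93 had a probe and 67 were tested. With GR24, 24 rose and 22 fell at an adjusted p under 0.05 (limma), with a median log2 difference of 0.10, against 0.027 over all probes. With pinosylvin 6 rose and 7 fell (median 0.070, against 0.054 over all probes), and with resveratrol 6 rose and 7 fell (median -0.00056, against 0.010). The share called, 68.7%, 19.4% and 19.4%, stood beside 57.1%, 16.6% and 17.0% of all probes. Most of the list thus moved with GR24, as did most of the array. With the replicate number as a block the resveratrol count was 22 (32.8%), beside 27.9% of all probes. With the slide as a block the counts were 21 for pinosylvin (31.3%, beside 29.1% of all probes) and 23 for resveratrol (34.3%, beside 28.3%), so the shares of the list and of the array rose together.

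Of 12 tested genes for ligands and their secretion 7 fell and 2 rose with GR24, beside 25.5% of all probes lower and 31.5% higher. The ligands *Wnt1*, *Wnt6*, *Wnt9a*, *Wnt10a* and *Wnt10b* and the secretion genes *Porcn* and *Wls* fell, *Wnt4* and *Wnt7b* rose, and the other 3 tested ligands were not called. *Wnt6*, a ligand of the canonical pathway, had -0.91, -1.13 and -1.20 in the control and -4.66, -4.49 and -5.24 with GR24, where 1 of 3 arrays was well above background. It had -2.28, -2.31 and -2.74 with pinosylvin and -2.18, -2.19 and -2.41 with resveratrol. All compound arrays lay below all control arrays, with GR24 far below both stilbenes. The difference was -3.72 with GR24 (SE 0.190, adjusted p = 7.12e-08; -1.94 at the least under the alternatives), -1.36 with pinosylvin (adjusted p = 0.000792) and -1.18 with resveratrol (adjusted p = 0.00189).

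*Wnt10a*, the neighbour of *Wnt6* in the rat gene table, had -1.76, -1.60 and -1.98 in the control and was not well above background with GR24. Its measured mean there was 10.5-fold lower on this scale (limma, adjusted p = 7.11e-09, n = 3). This fold is no lower bound, since all 3 GR24 signals lay above the dimmest signal marked on their array. It is also no estimate of size, with no GR24 array well above background. The difference of -3.39 came down to -1.64 under the alternatives. It fell by 0.57 with pinosylvin (SE 0.124, adjusted p = 0.00999) and by 1.01 with resveratrol (adjusted p = 0.000384), with no overlap with the control. The 2 neighbours thus fell with all 3 compounds. The pinosylvin call of *Wnt10a* was lost with quantile normalization (adjusted p = 0.0516). *Wnt1* fell by 1.45 with GR24 (SE 0.419, adjusted p = 0.0125), with -1.56 on slide 1 and -1.24 on slide 2, a call lost without GR24 replicate 2 or control replicate 3. *Wnt10b* fell by 0.40 with resveratrol (SE 0.0865, adjusted p = 0.0107), and lost its call when only the compared arrays were fitted. With GR24 it fell by 0.53 (adjusted p = 0.000364). *Wnt9a* rose by 0.38 with pinosylvin (SE 0.0912, adjusted p = 0.0172), a call lost without pinosylvin replicate 2, without control replicate 3 and with no filter on dim probes. It fell by 0.54 with GR24 (adjusted p = 0.000481).

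*Porcn*, the acyltransferase that attaches the lipid to Wnt ligands, had 3.18, 3.37 and 3.01 in the control and 3.80, 3.93 and 3.70 with pinosylvin. The pinosylvin arrays lay above all others. It rose by 0.62 with pinosylvin (SE 0.0955, adjusted p = 0.00151), and the difference with resveratrol was 0.026 (95% interval -0.19 to 0.24). With GR24 it fell by 0.25 (adjusted p = 0.0479), a call lost under 11 of 19 alternatives.

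Of 15 tested receptors and R-spondins, 5 rose and 4 fell with GR24, 60.0% beside 57.1% of all probes. *Fzd8*, chosen after its values were seen, entered as not called (0.55), while its other tested probes were called with opposite signs, -1.01 and 0.83. *Fzd4*, a Frizzled receptor, had 2.35, 2.27 and 2.34 in the control, -0.21, -0.16 and -0.15 with GR24, 1.94, 2.02 and 1.99 with pinosylvin and 1.40, 1.30 and 1.33 with resveratrol. The groups did not overlap and fell in the order control, pinosylvin, resveratrol, GR24. The difference was -2.49 with GR24 (SE 0.0569, adjusted p = 3.55e-10) and -0.97 with resveratrol (adjusted p = 4.87e-06). A second *Fzd4* probe gave -1.52 with GR24, -0.74 with resveratrol and 0.49 with pinosylvin, where the first probe gave -0.33 (adjusted p = 0.00276), so the probes differed in sign for pinosylvin, and their mean was 0.076 higher there. *Lgr4*, a receptor of R-spondins, rose with GR24 by 1.66 (SE 0.0907, adjusted p = 1.15e-07) and *Fzd3* by 1.59 (SE 0.0844, adjusted p = 9.35e-08), each with all 3 GR24 arrays above all control arrays. *Fzd3* also rose by 0.34 with resveratrol (adjusted p = 0.0192), a call lost under 7 of 19 alternatives.

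Only 2 of the 12 other secreted inhibitors and their receptors were tested. *Notum*, which removes the lipid from Wnt ligands, had -4.39, -4.27 and -4.14 in the control and was not well above background with GR24. With the GR24 arrays set no lower than their dimmest marked signals it was 2.46-fold lower (limma, adjusted p = 4.36e-05 for the measured difference, n = 3). This fold is no lower bound, since the highest GR24 signal, -5.23, lay above the dimmest signal marked on every GR24 array. The difference of -1.35 came down to -0.25 under the alternatives, smaller in size than that fold. It fell by 0.55 with pinosylvin (SE 0.163, adjusted p = 0.0448), where 1 of 3 arrays was well above background, a call lost under 12 of 18 alternatives. *Kremen1*, a co-receptor of Dkk proteins, rose by 0.46 with pinosylvin (SE 0.101, adjusted p = 0.011) and by 0.36 with GR24 (adjusted p = 0.0104).

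Among 19 tested transducers and destruction complex genes, 8 rose and 2 fell with GR24, 52.6% beside 57.1% of all probes. *Dvl3*, a Dishevelled protein that relays the signal from Frizzled, had -3.82, -4.12 and -3.93 in the control and -1.85, -1.82 and -2.07 with GR24, a rise of 2.04 (SE 0.154, adjusted p = 1.36e-06) with no overlap, and 1.07 at the least under the alternatives. *Apc2*, of the Apc family, fell by 0.44 with pinosylvin (SE 0.0762, adjusted p = 0.00322), by 0.35 with resveratrol (adjusted p = 0.00997) and by 0.93 with GR24 (adjusted p = 2.48e-06). *Tnks2*, a tankyrase that marks Axin for degradation, rose by 0.28 with resveratrol (adjusted p = 0.0341), lost under 10 of 19 alternatives, and a second probe gave -0.17. With GR24 it rose by 0.39 (adjusted p = 0.00161). *Gsk3b*, chosen after its values were seen, had 4 tested probes, which gave 0.51, 0.19, 0.16 and 3.52 with GR24, so its probes differed widely in size.

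Of 10 tested nuclear cofactors, 3 rose and 5 fell with GR24, beside 31.5% of all probes higher and 25.5% lower. *Tle3*, a Groucho-type corepressor, rose by 0.53 with pinosylvin (SE 0.0588, adjusted p = 0.000166) by 0.32 with resveratrol (adjusted p = 0.00408) and by 1.00 with GR24 (adjusted p = 1.97e-07), with no overlap with the control. Of 9 other target genes, 5 rose and 3 fell with GR24, beside the same shares. *Fosl1*, an AP-1 subunit, had 0.26, 0.26 and 0.28 in the control, 1.89, 1.95 and 1.66 with GR24 and -0.31, -0.31 and -0.46 with pinosylvin, so GR24 and pinosylvin lay on opposite sides of the control. The difference was 1.56 with GR24 (SE 0.0817, adjusted p = 8.28e-08) and -0.63 with pinosylvin (adjusted p = 0.000484).

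*Myc* rose with each compound, by 1.16 with GR24 (SE 0.0822, adjusted p = 8.22e-07), 0.52 with pinosylvin (adjusted p = 0.00181) and 0.67 with resveratrol (adjusted p = 0.000371), and its compound arrays all lay above the control arrays. *Ccn4*, a matricellular protein, fell by 0.53 with resveratrol (SE 0.0901, adjusted p = 0.00264) and by 1.24 with GR24 (adjusted p = 1.03e-06). *Nkd2*, a paralog of *Nkd1*, rose by 0.48 with resveratrol (SE 0.0881, adjusted p = 0.00407) and fell by 0.91 with GR24 (adjusted p = 8.78e-06), and a second probe gave 0.79 and -1.01. The targets thus did not move as one.

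**Figure D2:**
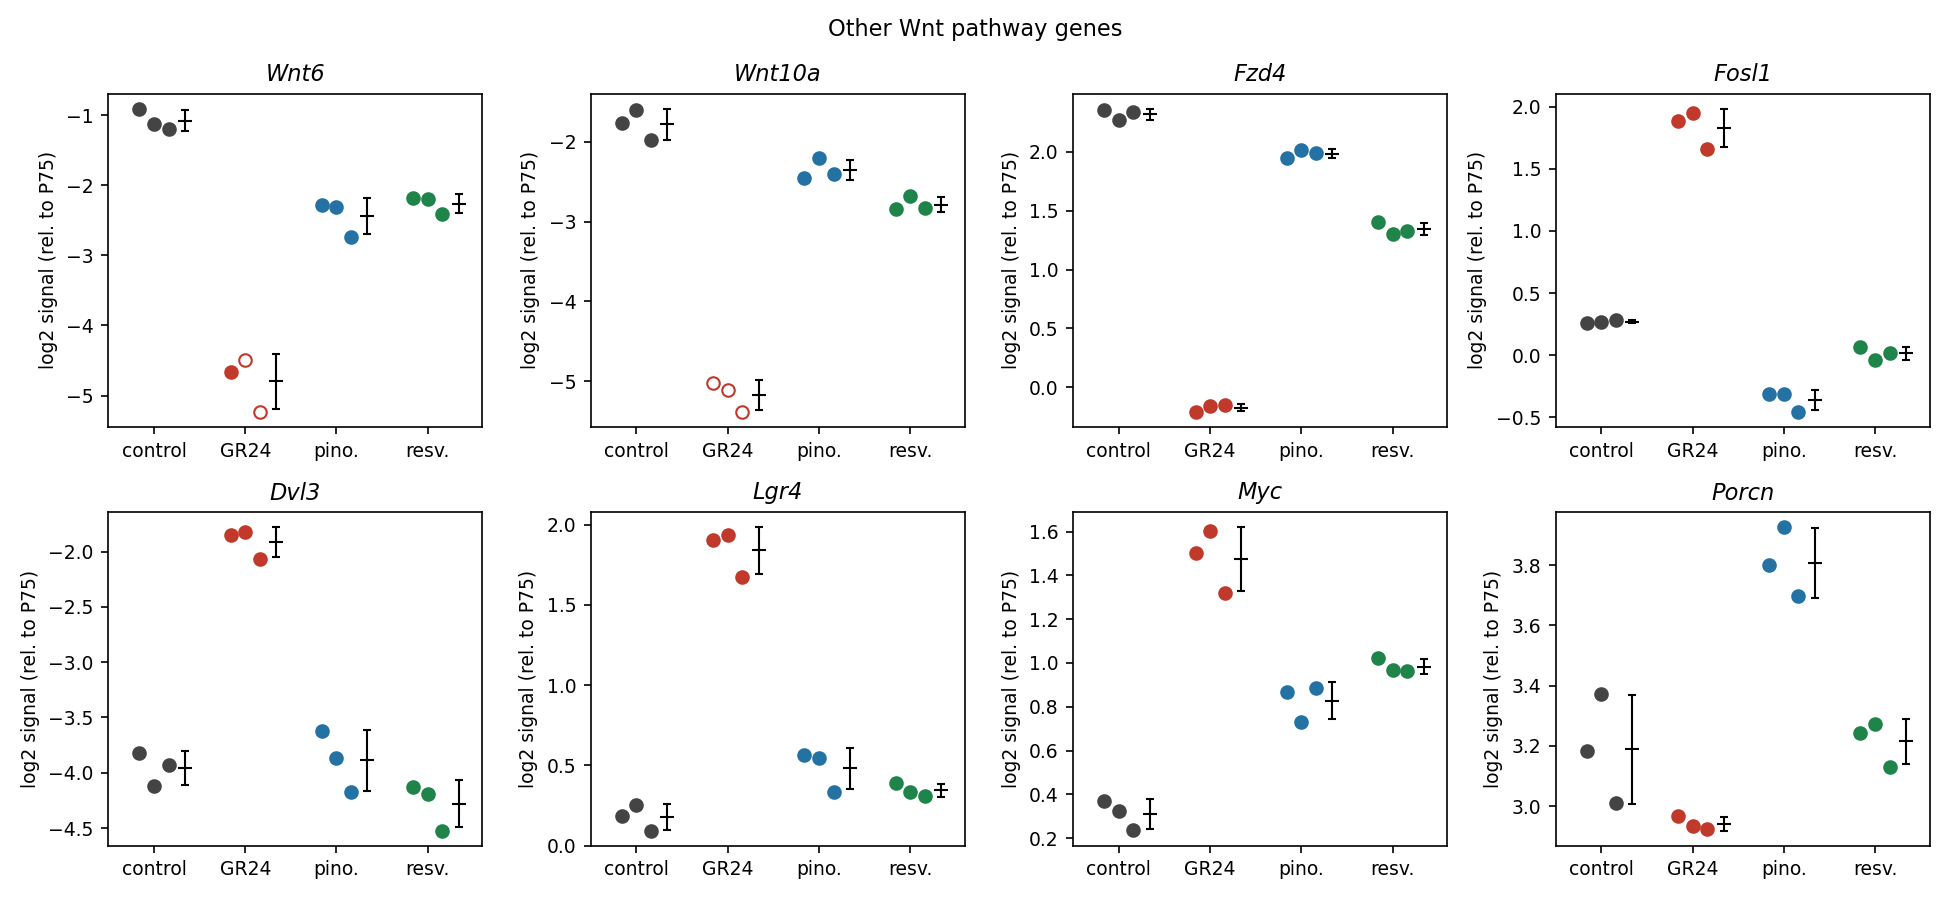
Log2 signal of 8 other pathway genes, relative to the 75th percentile (P75) of each array, for the 3 arrays per group, with filled points well above background, open points not, and bars for mean and SD on a separate scale per panel. *Wnt6*, *Wnt10a* and *Fzd4* are lowest with GR24, *Fosl1*, *Dvl3*, *Lgr4* and *Myc* are highest with GR24, and *Porcn* is highest with pinosylvin.

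Pinosylvin and resveratrol were compared directly, as 1 pair at 60 µM and 24 h, with p-values adjusted over all tested probes. Of the 67 other pathway genes, 8 were higher and 1 lower with pinosylvin, 13.4% beside 14.5% of all probes. *Ccn4* was 0.65 higher (SE 0.0901, adjusted p = 0.00101), *Fzd4* 0.64 (SE 0.0569, adjusted p = 7.12e-05) and *Porcn* 0.59 (SE 0.0955, adjusted p = 0.0025), and *Fosl1* was lower, with -0.38 (SE 0.0817, adjusted p = 0.0123), a call lost with no filter on dim probes (adjusted p = 0.0531). *Fzd2* was 0.52 higher (adjusted p = 0.0127), lost without pinosylvin replicate 2 or resveratrol replicate 3, and *Tle1* 0.51 higher (adjusted p = 0.046), lost under 10 of 19 alternatives. *Wnt9a* was 0.46 higher (limma, adjusted p = 0.00727), a call kept under every alternative.

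The genes called with each stilbene against the control were *Apc2*, *Cd44*, *Fzd4*, *Myc*, *Tle3*, *Wnt10a* and *Wnt6*, a list from which nothing is read, since both comparisons share the control arrays. The *Cd44* calls were lost under 4 of 19 alternatives with pinosylvin and 6 of 19 with resveratrol, and a second *Cd44* probe was not called with resveratrol. Between the stilbenes *Wnt10a* was 0.43 higher with pinosylvin (adjusted p = 0.0422), a call lost under 12 of 18 alternatives. *Tle3* was 0.21 higher (adjusted p = 0.0389), a call lost under 10 of 19 alternatives, and a second *Tle3* probe gave 0.028 (adjusted p = 0.902). The difference was -0.18 for *Wnt6* (95% interval -0.60 to 0.24), -0.16 for *Myc* (-0.34 to 0.026), -0.083 for *Apc2* (-0.25 to 0.087) and -0.045 for *Cd44* (-0.19 to 0.11), and missing the threshold does not show that the stilbenes act alike there. The count of 9 rested in part on pinosylvin replicate 2, without which it was 5, and was 18 with the replicate block (26.9%, beside 26.0% of all probes) and 19 with the slide as a block (28.4%, beside 26.5%). In the same comparison 9 of 12 myotube markers were higher with pinosylvin, 4 of 7 markers of undifferentiated or cycling myoblasts were lower, and of 8 fibroblast-like markers 3 were higher and 1 lower, beside 7.68% of all probes higher and 6.85% lower. Their part in these differences was not tested.

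By the rule for naming, 36 differences of 21 other pathway genes were named. Of these, 26 kept their call under every alternative and 10 lost it under at least 1. The other comparisons of these genes and those of *Cd44* held 19 more calls, of which 11 were kept under every alternative and 8 lost under at least 1.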

How the data were processed

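The 12 cultures, 3 per group by the labels, were each hybridized to a 1-colour Agilent array. The authors deposited the scanner output of Feature Extraction 12.0.0.7, whose processed signal is an intensity with background subtracted within the array and not normalized between arrays, together with other columns that mark outlier spots, saturated spots and signals well above background. A table of log2 values for 25848 probes was also deposited by the authors, with its background correction and scaling not given in the sources used here, and served as an alternative.

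Control spots were left out, spots marked as outliers were set to missing, and log2 values were averaged per probe and set against the 75th percentile of each array over all 45598 probes (720 to 1038 in signal). The percentile was taken over probes, not spots, after a run over spots had been seen, and spots were kept as an alternative chosen after seeing the data. Limma 3.58.1 in R 4.3.3 was fitted to all 12 arrays with a mean per group, with eBayes and Benjamini-Hochberg adjustment over the 24279 probes that every array of 1 or more groups marked as well above background, at 0.05. The fit was tested on simulated data. Intervals are 95%, from limma. RefSeq accessions without versions named 21109 probes (46.3%) through the GRCr8 gene table, used for names and neighbours. No spot was saturated.

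Where no array of a group was well above background, each of its arrays entered the fold at no less than the dimmest signal so marked on it. That signal can be of any probe and is not the detection limit of the probe in question, so these folds are no lower bounds. A gene is given by its probe with the highest mean. The members and lists were chosen with earlier results of these data known. Other pathway genes are named where they were among the 5 largest differences each way in a comparison, past the threshold and without overlap between groups; exceptions are stated. Alternatives were normexp (offset 50, on median signals), quantile normalization, the deposited table, filters on dim probes, the arrays fitted, outlier spots kept, eBayes with trend and robust settings, means over probes of a gene, blocks, and each array left out. Equal replicate numbers of different groups deviated together from their group means (18 correlations, 0.191 to 0.744), each above the 0.1 asked of a pairing. Within slide 1 the 12 correlations of equal numbers were 0.191 to 0.469, with a median of 0.383. They overlapped the 12 of other numbers, which were 0.222 to 0.475 with a median of 0.282. The 24 between slides were -0.663 to -0.324. Slide 2 held only replicate 3 of every group, so slide and experiment cannot be told apart there. The replicate block is therefore not set apart from the slide block.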

Additional observations from a re-analysis of the deposited data

How the results depend on the processing

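For *Sfrp4*, pinosylvin minus control was 0.76 with normexp and the 75th percentile, 0.72 with normexp and quantile normalization and 1.58 in the deposited table, beside 2.53.

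With the replicate block, probes past the threshold numbered 6947 for pinosylvin, 6769 for resveratrol and 6323 between the stilbenes, and other pathway genes 22 for resveratrol and 18 between the stilbenes. With the slide as a block the probes were 7074, 6869 and 6443, the pathway genes 21 for pinosylvin, 23 for resveratrol and 19 between the stilbenes, and the 10 chosen genes gave 4 between the stilbenes. Among other pathway genes, the replicate block ended none of the calls of the 36 named differences, nor of the 19 more calls counted with them.

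With no filter on dim probes, which tests 45598 probes, the counts were 2409 for pinosylvin, 2680 for resveratrol and 1975 between the stilbenes, with 5 pathway genes. With only the compared arrays pinosylvin gave 2479. Only 3 of the chosen genes were above background on all arrays, and limma then called 2 with GR24, 1 with resveratrol, 1 between the stilbenes and 0 with pinosylvin (0 at an unadjusted p under 0.05). Between the stilbenes the chosen genes gave 1 with normexp before either normalization, with quantile normalization and in the deposited table, where *Sfrp4* or *Nkd1* was no longer counted. The percentile over spots, chosen after seeing the data, gave 14 pathway genes between the stilbenes, and moved the median of all probes with GR24 from 0.027 to 0.13. Between the stilbenes 1864 probes were higher and 1664 lower, against 1680 and 1920 with quantile normalization and 1465 and 1614 in the deposited table. For resveratrol 1941 higher and 2182 lower became 2444 and 2057 with quantile normalization. For GR24 7658 higher and 6196 lower became 8720 and 5595 with quantile normalization, and 9223 and 5358 with the percentile over spots.

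With each array left out, counts between the stilbenes were 2148 to 2716 probes and 5 to 9 pathway genes, lowest without pinosylvin replicate 2. *Axin2* was not counted with GR24 under 7 alternatives: both normexp settings, the deposited table, no filter, and without GR24 replicate 1 or 2 or control replicate 3. *Porcn* with resveratrol, not called, was -0.063 to 0.12 with an array left out. *Fzd4* with pinosylvin turned to 0.076 as the mean over its probes. The cause of these changes was not tested.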

Other observations

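*Cd68*, a lysosomal protein listed among the blood markers, rose by 2.67 with GR24 (SE 0.172, adjusted p = 4.11e-07 in limma, n = 3) and was well above background on all 12 arrays, while *Ptprc* was not on any.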
